A study of Homo sapiens with 12 samples.

Results

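KLK2, KLK3 and KLK4 are the kallikrein-related peptidases most closely tied to the prostate. All 3 were taken by symbol from a table of 26439 genes. The rule uses no measured value, but these 3 genes were chosen with earlier results of these data known. They were followed through 12 RNA-Seq libraries of human prostate cancer cells, made to ask what changes when the atypical chemokine receptor CXCR7 (gene symbol ACKR3) is knocked down (KD). In C4-2B-EnzR cells at passage 15 (labelled C4-2B MDVr, grown with 10 μM enzalutamide) and in LNCaP-EnzR cells at passage 23 (LNCaP MDVr, grown with 2 μM enzalutamide), 3 libraries carried a lentiviral short hairpin against CXCR7 (shCXCR7) and 3 carried the pLKO control virus (LKO). RNA was taken 4 days after infection. Both lines descend from one patient-derived line, C4-2B having been derived from LNCaP, and were made resistant to the antiandrogen enzalutamide by long exposure. Every library therefore came from enzalutamide-resistant cells, and line, passage and dose differ together between the lines. The labels do not say whether the 3 libraries of a group were separate cultures, so that p-values measure only the spread between these libraries.

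Kallikreins are secreted serine proteases encoded side by side in one cluster. KLK3 encodes prostate-specific antigen (PSA), the chymotrypsin-like protease that liquefies semen by cutting semenogelins and is measured in blood as a marker of prostate cancer. KLK2 encodes a trypsin-like protease that can activate the PSA precursor, and KLK4 encodes another trypsin-like protease, made in prostate epithelium and needed in developing teeth for enamel maturation. In prostate epithelium androgen switches on KLK3 and KLK2 through their promoters and upstream enhancers, which is why PSA is read as a measure of androgen action, and KLK4 is also responsive to androgen.

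In GENCODE 44 on GRCh38, KLK3 lies on chromosome 19 from 50854915 to 50860764 on the + strand and KLK2 from 50861568 to 50880567 on the + strand. KLK4 lies on the − strand of the same chromosome, from 50906351 to 50911395. Their canonical transcripts have 5 exons in KLK3, 5 in KLK2 and 6 in KLK4, and start 18.5 kb (KLK2, at 50873439, inside the annotated span) and 56.5 kb (KLK4) from the start of KLK3. No other annotated gene overlaps any of them, whereas the pseudogene KLKP1 lies between KLK2 and KLK4. The 250 bases before each start site (RefSeq, GRCh38.p14) are shown, because androgen acts through such promoters, for KLK3 (chr19:50854665-50854914, + strand), KLK2 (chr19:50873189-50873438, + strand) and KLK4 (chr19:50911396-50911645, printed on its own − strand). Capitals mark the best match to the androgen response element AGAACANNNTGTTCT, searched on both strands, where it had at most 4 mismatches.
KLK3 promoter: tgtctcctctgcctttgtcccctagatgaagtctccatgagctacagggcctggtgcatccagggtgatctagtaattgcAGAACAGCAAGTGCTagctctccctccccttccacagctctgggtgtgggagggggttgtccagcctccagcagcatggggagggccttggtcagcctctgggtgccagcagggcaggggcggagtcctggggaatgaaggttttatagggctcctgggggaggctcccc
KLK2 promoter: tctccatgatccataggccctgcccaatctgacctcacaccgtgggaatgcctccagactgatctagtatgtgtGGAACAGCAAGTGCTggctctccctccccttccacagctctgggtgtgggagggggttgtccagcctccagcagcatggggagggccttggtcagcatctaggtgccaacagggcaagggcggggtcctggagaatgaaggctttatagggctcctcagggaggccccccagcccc
KLK4 promoter: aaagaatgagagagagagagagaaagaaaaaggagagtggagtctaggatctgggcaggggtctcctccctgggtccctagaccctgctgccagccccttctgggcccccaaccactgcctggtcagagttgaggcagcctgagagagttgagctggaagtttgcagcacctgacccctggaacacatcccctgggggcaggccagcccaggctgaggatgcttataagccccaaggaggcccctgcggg
Counted from 1 at the first base of the element, the KLK3 match differs from it by T10A and T13G and begins 170 bases before the start. In KLK2 the match differs by A1G, T10A and T13G and begins 176 bases before the start. Among 35116 RefSeq promoter windows of 300 bases, 495 (1.41%) hold a match with 2 or fewer mismatches and 3796 (10.8%) one with 3 or fewer. The best KLK4 match shown has 5 mismatches, and that before its other annotated start has 6. The KLK3 and KLK2 stretches are 85.1% identical over 241 aligned bases.

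KLK3 and KLK2 are also 85.3% identical over 783 aligned coding bases, against 64.9% for KLK4 with KLK3 and 63.6% for KLK4 with KLK2, which bears on how well short reads tell the genes apart. Of 2780 stretches of 50 bases in the canonical KLK2 transcript, 11 (0.4%) also occur in that of KLK3, and KLK4 shares none with either. The longest shared coding run, shown because a read from inside it could be given to either gene, has 60 bases in exon 3 of both, at chr19:50858242-50858301 in KLK3 and chr19:50876685-50876744 in KLK2.
Shared KLK3 and KLK2 run: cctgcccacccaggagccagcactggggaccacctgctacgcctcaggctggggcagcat

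Values are RPKM, read counts divided by gene length and by the reads of the library, rescaled within each line by a median-of-ratios factor per library, which sets the median gene level between libraries. Whole reads recovered from the RPKM steps gave a divisor of 9528740 to 14080782 reads in 11 libraries and of 35667712 reads in LNCaP-EnzR shCXCR7 replicate 3. That library stood apart, with 27.4% of its divisor in genes and 1636 genes at 0, against 67.0 to 75.5% and 8719 to 9652 genes in the others. Its median was 0.234 RPKM over 5096 genes at 0 in the other 11 libraries. Values are given with and without it where it changes a result. ACKR3, the targeted gene, averaged 21.6 ± 2.40 RPKM in C4-2B-EnzR shCXCR7 libraries and 85.3 ± 1.24 in LKO libraries, and 49.4 ± 6.86 in LNCaP-EnzR shCXCR7 libraries and 117 ± 5.57 in LKO libraries (rescaled, SD, n = 3 each), with no overlap in either line. All 9 luminal prostate markers looked up were at 1.81 RPKM or more in the 11 other libraries, and the 3 basal markers stayed at 0.154 RPKM or less and the 4 blood markers at 0.238 RPKM or less there. Of 5 fibroblast markers, COL1A1 alone reached 1 RPKM in the 11 other libraries, with a highest value of 11.2 RPKM (deposited).

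All 3 kallikreins fell after CXCR7 KD in both lines. In C4-2B-EnzR cells the levels left were 29.0% of control for KLK3, 33.7% for KLK2 and 34.8% for KLK4. In LNCaP-EnzR cells they were 28.4% for KLK3, 22.1% for KLK2 and 14.1% for KLK4, with KLK4 lowest of the 3. In bulk RNA, fewer expressing cells and less RNA per cell cannot be told apart.

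KLK3, the PSA gene, stood at 29.2, 32.8 and 27.5 RPKM in the 3 C4-2B-EnzR shCXCR7 libraries, against 113, 101 and 94.1 RPKM in the LKO libraries (rescaled). The lowest control was far above the highest KD library. Its log2 fold change was -1.78 (SE 0.10, limma, Benjamini-Hochberg adjusted p = 2.33e-05). In the other line, KLK3 was at 6.56, 6.60 and 8.50 RPKM in LNCaP-EnzR shCXCR7 libraries, against 24.0, 25.3 and 27.0 RPKM in the LKO libraries. The groups again did not overlap, and the highest KD value belonged to replicate 3. Its log2 fold change in LNCaP-EnzR was -1.79 (SE 0.10, limma, adjusted p = 2.13e-06).

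KLK2, whose product can activate pro-PSA, stood at 7.39, 6.95 and 5.68 RPKM in C4-2B-EnzR shCXCR7 libraries, against 22.0, 19.6 and 17.8 RPKM in LKO libraries. Every KD library was below every control. Its log2 fold change was -1.54 (SE 0.12, limma, adjusted p = 7.20e-05). In LNCaP-EnzR cells KLK2 stood at 1.22, 0.855 and 2.59 RPKM in shCXCR7 libraries, against 7.10, 6.92 and 7.12 RPKM in LKO libraries. The controls were nearly equal to one another, whereas the KD libraries spread widely. The highest was replicate 3, the library with the raised background. Before rescaling, the KD libraries were at 1.44, 1.03 and 1.28 RPKM, and the factors dividing them were 1.18, 1.21 and 0.493. These KD values rest on 51, 41 and 135 reads, against 222, 331 and 259 reads in the controls. Its log2 fold change in LNCaP-EnzR was -2.13 (SE 0.27, limma, adjusted p = 0.000222), and -2.54 (SE 0.13, adjusted p = 1.98e-05) without replicate 3.

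KLK4 stood at 25.2, 26.8 and 28.3 RPKM in C4-2B-EnzR shCXCR7 libraries, against 87.6, 75.2 and 67.9 RPKM in LKO libraries. The groups were far apart, with the wider spread among controls. Its log2 fold change was -1.51 (SE 0.10, limma, adjusted p = 3.88e-05). In LNCaP-EnzR cells KLK4 stood at 4.54, 4.85 and 5.48 RPKM in shCXCR7 libraries, against 31.0, 38.7 and 36.0 RPKM in LKO libraries. The 3 KD libraries lay close together, including the one that stood apart in background. They hold 87, 107 and 131 KLK4 reads, against 445, 851 and 602 reads in the controls. Its log2 fold change in LNCaP-EnzR was -2.77 (SE 0.10, limma, adjusted p = 4.69e-07).

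**Figure D1:**
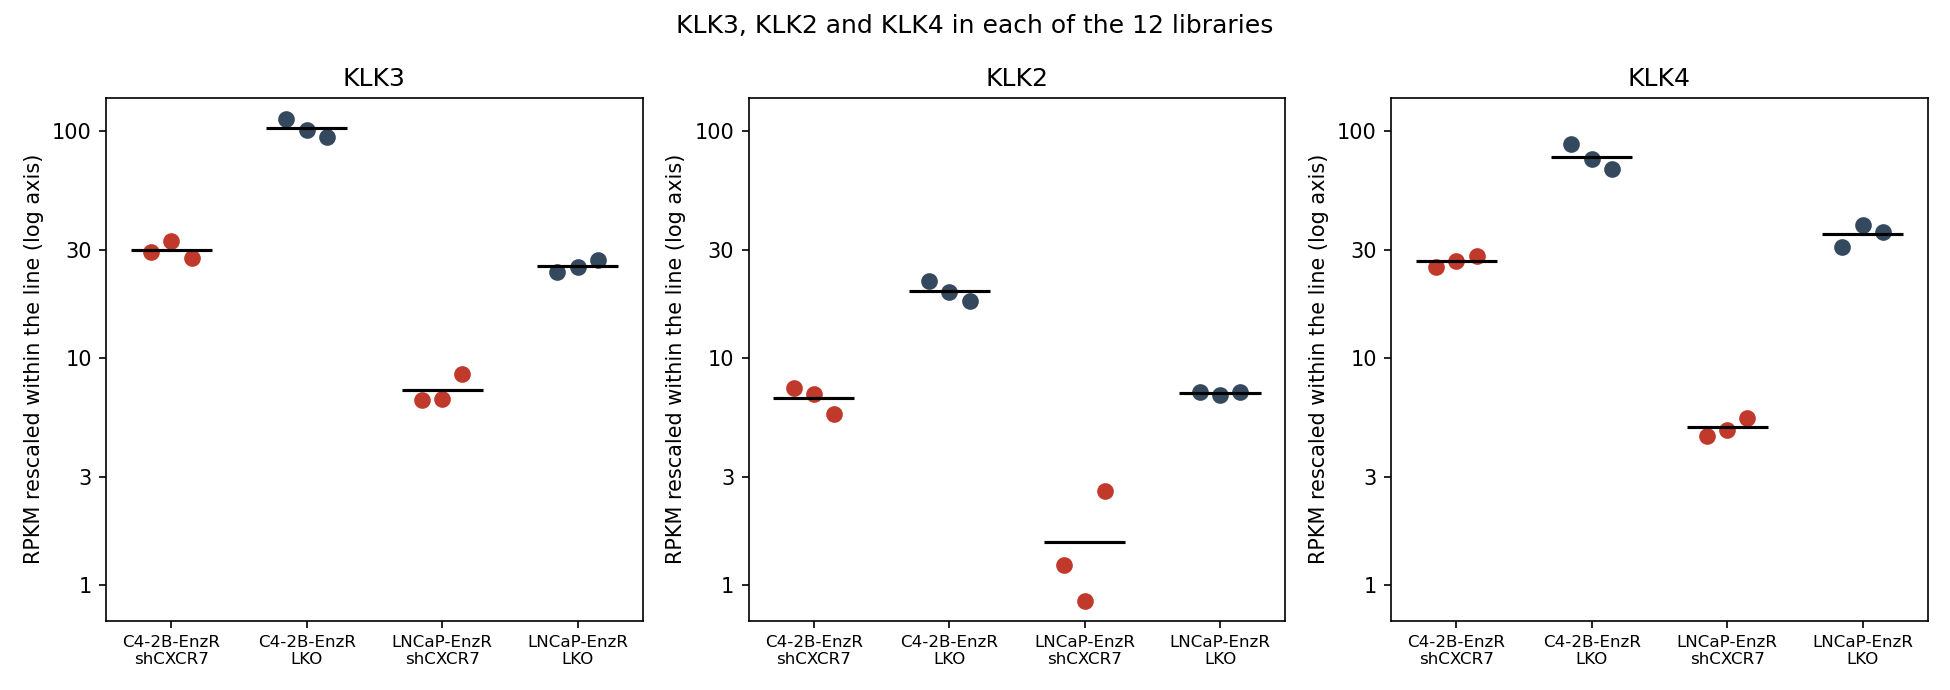
RPKM of KLK3, KLK2 and KLK4 (log axis, rescaled within each line) in every library, one point per library, shCXCR7 in red and LKO in blue, with a line at the mean of 3. In each line all KD points lie below all controls, and the widest group is KLK2 in LNCaP-EnzR shCXCR7, from 0.855 to 2.59 RPKM.

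Among 13352 genes tested in C4-2B-EnzR cells 21.3% fell at an adjusted p under 0.05, and all 3 kallikreins did. Ordered from the most negative log2 fold change, KLK3 was number 106, KLK2 number 182 and KLK4 number 193. Among 13167 genes tested in LNCaP-EnzR cells 21.2% fell, again with all 3 kallikreins, and KLK4 was number 5, KLK2 number 19 and KLK3 number 51. Groups without overlap and lower after KD, as seen for all 3 in both lines, were found for 27.1% of genes in C4-2B-EnzR and 25.9% in LNCaP-EnzR cells, so that lack of overlap by itself does not set these genes apart. Over both lines, the mean log2 difference was -2.14 for KLK4, -1.83 for KLK2 and -1.78 for KLK3. With labels permuted within each line, each had p = 0.005, the smallest that this 2-sided exact permutation test can give. Any gene without overlap in the same direction in both lines gets this p, so it adds nothing to that lack of overlap. The share of all genes that reach it was not counted.

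**Figure D2:**
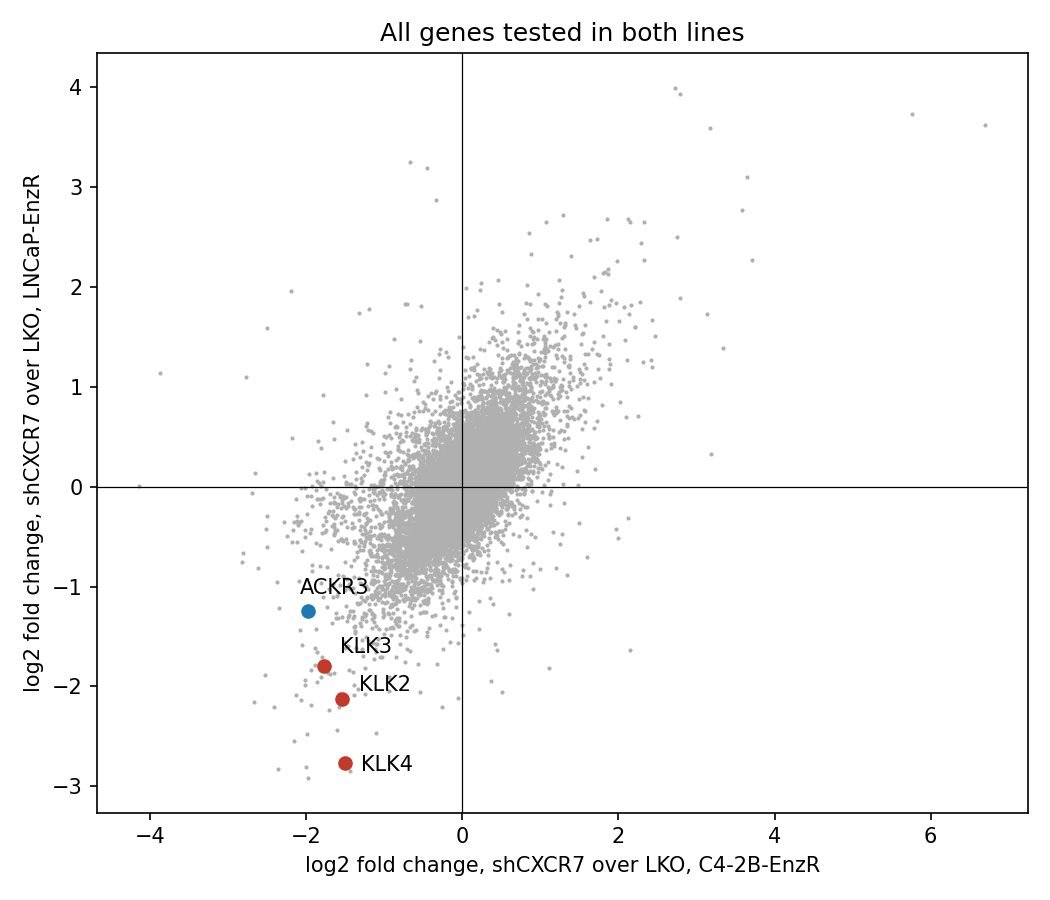
Log2 fold change (shCXCR7 over LKO) of the 12537 genes tested in both lines, C4-2B-EnzR on the x axis and LNCaP-EnzR on the y axis, one grey point per gene. The kallikreins (red) sit at the lower left edge, with KLK4 the lowest of the 3 on the LNCaP-EnzR axis at -2.77, and the targeted gene ACKR3 is in blue.

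The 3 responses were then compared between lines by the interaction term of a limma fit to all 12 libraries. KLK4 differed. Its response was 1.29 log2 units less negative in C4-2B-EnzR than in LNCaP-EnzR cells (SE 0.15, 95% interval 0.96 to 1.61, adjusted p = 0.000489), a difference that was positive at an adjusted p under 0.05 for 6.15% of 14202 genes. On the RPKM as deposited the KLK4 difference was 1.62 with an adjusted p of 0.197. For KLK2 the difference was 0.64 (SE 0.35, 95% interval -0.12 to 1.39, adjusted p = 0.269), and without LNCaP-EnzR shCXCR7 replicate 3 it was 1.03 (adjusted p = 0.00788). The KLK3 difference was 0.04 (SE 0.15, 95% interval -0.28 to 0.36, adjusted p = 0.886). ACKR3 itself differed in the other direction, with a difference of -0.71 (SE 0.15, adjusted p = 0.0109). The loss of ACKR3 was shallower in LNCaP-EnzR cells, where that of KLK4 was deeper and that of KLK3 was not called different. Line, passage and dose differ together here, and any relation between these losses was not tested.

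**Figure D3:**
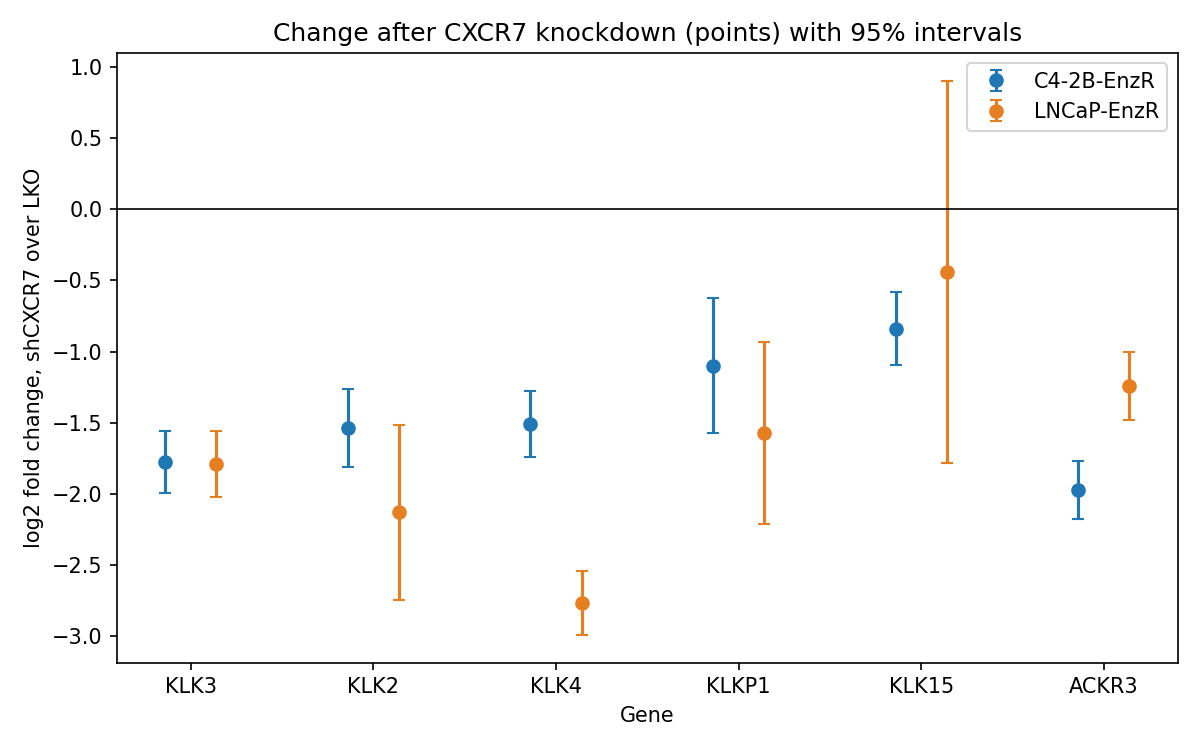
Log2 fold change (shCXCR7 over LKO) with 95% intervals from limma, C4-2B-EnzR in blue and LNCaP-EnzR in orange, for the 3 kallikreins, their neighbors KLKP1 and KLK15, and the targeted gene ACKR3. The KLK4 intervals of the lines are apart, at -1.51 and -2.77, whereas those of KLK3 lie on top of each other.

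Before KD, all 3 kallikreins were higher in C4-2B-EnzR than in LNCaP-EnzR cells, as were 30.8% of genes tested at an adjusted p under 0.05. With factors set over all 12 libraries, KLK3 averaged 92.8 ± 8.95 RPKM in C4-2B-EnzR LKO libraries and 28.1 ± 1.71 RPKM in LNCaP-EnzR LKO libraries (SD, n = 3 each), a log2 fold change of 1.71 (SE 0.10, limma, adjusted p = 3.67e-08). KLK2 averaged 17.9 ± 1.92 RPKM in C4-2B-EnzR LKO and 7.77 ± 0.132 RPKM in LNCaP-EnzR LKO libraries, a log2 fold change of 1.17 (SE 0.25, adjusted p = 0.00119). KLK4 averaged 69.4 ± 9.16 RPKM in C4-2B-EnzR LKO and 38.9 ± 4.35 RPKM in LNCaP-EnzR LKO libraries, a log2 fold change of 0.83 (SE 0.11, adjusted p = 2.21e-05).

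These levels gave each gene the same order of groups, from LNCaP-EnzR shCXCR7 at the bottom through C4-2B-EnzR shCXCR7 and LNCaP-EnzR LKO to C4-2B-EnzR LKO. The middle pair was not separated for KLK3. It averaged 27.2 ± 2.42 RPKM in C4-2B-EnzR shCXCR7 libraries and 28.1 ± 1.71 RPKM in LNCaP-EnzR LKO libraries, a log2 fold change of -0.05 with a 95% interval of -0.27 to 0.18 (limma, adjusted p = 0.723). KLK2 averaged 6.08 ± 0.801 RPKM in the C4-2B-EnzR shCXCR7 libraries, at a log2 fold change of -0.35 from LNCaP-EnzR LKO (95% interval -0.89 to 0.19, adjusted p = 0.237). KLK4 was separated, at 24.4 ± 1.43 RPKM and a log2 fold change of -0.66 (95% interval -0.90 to -0.43, adjusted p = 0.000125). Between the KD groups, C4-2B-EnzR exceeded LNCaP-EnzR by a log2 fold change of 1.76 for KLK3, 1.81 for KLK2 and 2.12 for KLK4 (adjusted p from 8.80e-09 to 4.91e-05). These comparisons between neighbouring groups pair cells that differ in line, passage and dose as well as in CXCR7. The share of all genes called in them was not counted, so these calls do not set the kallikreins apart. Between the controls of the lines, 30.8% of genes tested were higher in C4-2B-EnzR at an adjusted p under 0.05.

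Position among all genes within a library needs no rescaling. KLK3 ranked 1796 to 2147 from the top in C4-2B-EnzR shCXCR7 libraries, against 281 to 410 in LKO libraries, out of 16997 to 17701 genes above 0. In LNCaP-EnzR cells KLK3 ranked 5191 to 6313 in shCXCR7 libraries, against 1836 to 2064 in LKO libraries. By RPKM, which divides by gene length, KLK4 was the highest of the 3 in LNCaP-EnzR controls, ranking 1218 to 1546. It ranked 7007 to 7626 after KD. In both groups of that line except replicate 3 of the KD libraries, with 24803 genes above 0, the number of genes above 0 was 16787 to 17720.

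The balance among the 3 genes was compared by ratios of the deposited RPKM within a library, and tested on log2 ratios of rescaled RPKM with 0.25 added to each gene, which pulls the ratios of low values towards 1. KLK4 over KLK3 was 0.86, 0.815 and 1.03 in C4-2B-EnzR shCXCR7 libraries, against 0.774, 0.742 and 0.721 in LKO libraries. All KD libraries were slightly above all controls there. In LNCaP-EnzR cells the same ratio was 0.693, 0.736 and 0.645 in shCXCR7 libraries, against 1.29, 1.53 and 1.33 in LKO libraries. In RPKM, KLK4 was thus above KLK3 in every LNCaP-EnzR control and below it in every KD library of that line. This order rests on the gene lengths behind the RPKM, 1359 bases for KLK4 and 1906 for KLK3, whose annotation was not stated. In reads, the LNCaP-EnzR controls hold 445, 851 and 602 for KLK4 and 484, 779 and 633 for KLK3. The change in the plain ratio between groups does not rest on the lengths. The log2 difference was 0.27 in C4-2B-EnzR and -0.98 in LNCaP-EnzR cells, each with p = 0.1, the smallest that 3 against 3 libraries allow in a 2-sided exact permutation test. Over both lines the mean difference was -0.35 (exact permutation p = 0.105, adjusted over 3 pairs 0.292), with opposite directions in the lines.

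KLK3 over KLK2 was 3.96, 4.73 and 4.84 in C4-2B-EnzR shCXCR7 libraries, against 5.15, 5.16 and 5.28 in LKO libraries. The KD libraries were all lower, with a log2 difference of -0.24 (exact permutation p = 0.1). In LNCaP-EnzR cells it was 5.36, 7.72 and 3.28 in shCXCR7 libraries, against 3.38, 3.65 and 3.79 in LKO libraries. Replicate 3 fell below the controls and the other KD libraries above them, for a log2 difference of 0.34 (exact permutation p = 0.4). That value rested on what was added to the low KLK2 levels, being 0.51 with nothing added and 0.02 with 1 RPKM added, and on leaving out 1 library it ranged from 0.10 (without KD replicate 2) to 0.61 (without KD replicate 3). KLK4 over KLK2 overlapped between groups in both lines, with log2 differences of 0.03 in C4-2B-EnzR (p = 1) and -0.64 in LNCaP-EnzR cells (exact permutation p = 0.2). With nothing added they were 0.06 in C4-2B-EnzR and -0.49 in LNCaP-EnzR cells, and with 1 RPKM added -0.04 in C4-2B-EnzR and -0.89 in LNCaP-EnzR cells. On leaving out 1 library the LNCaP-EnzR value ranged from -0.92 (without KD replicate 2) to -0.32 (without KD replicate 3). Over both lines neither ratio with KLK2 passed the test (mean log2 difference 0.05 and exact permutation p = 0.8 for KLK3 over KLK2, -0.30 and p = 0.195 for KLK4 over KLK2).

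**Figure D4:**
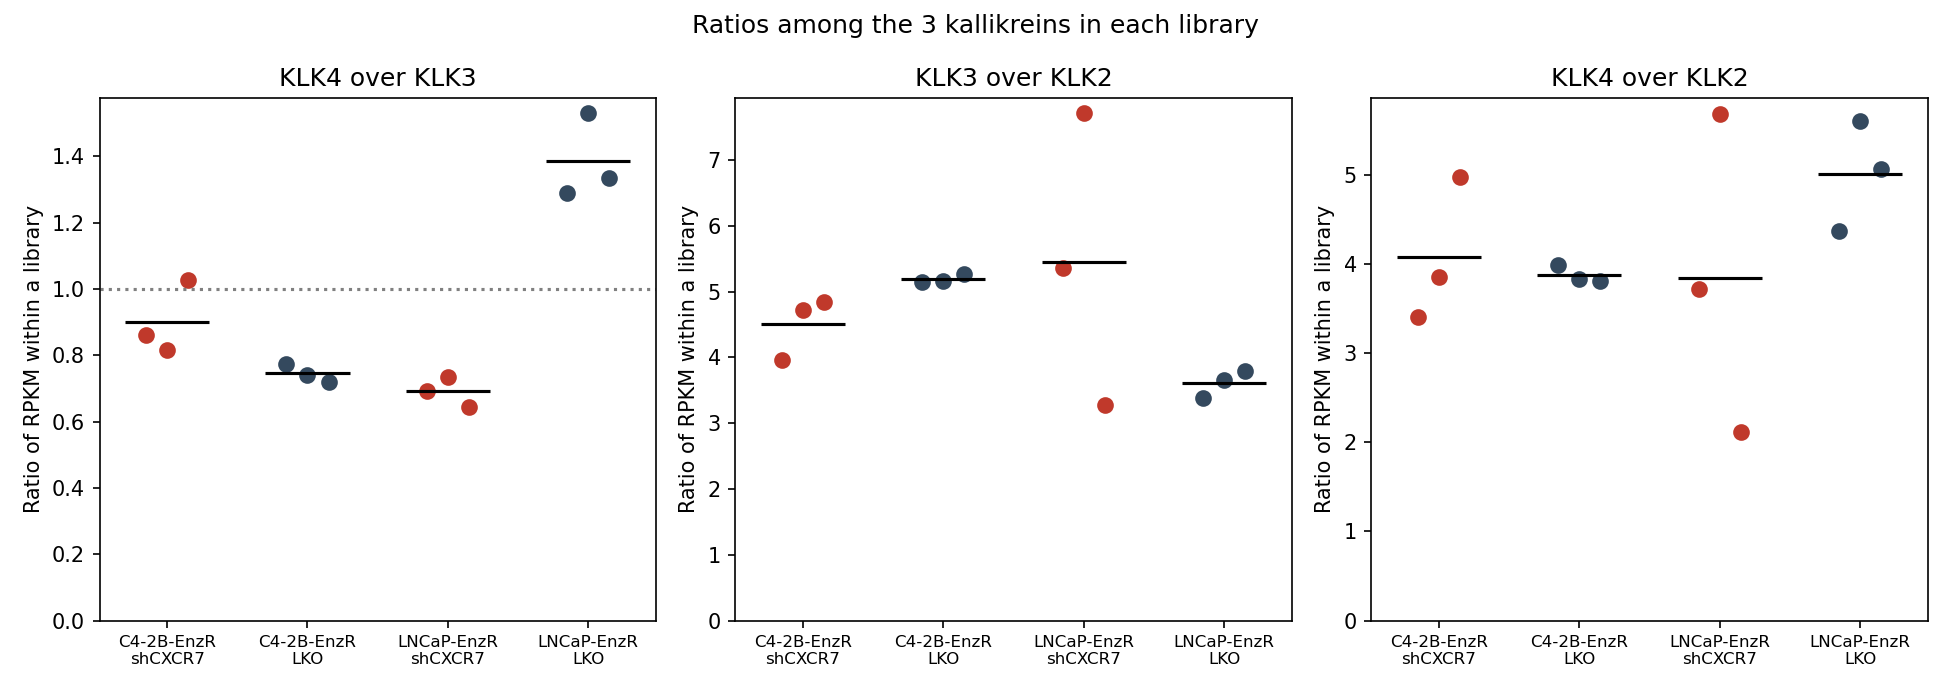
Ratios of RPKM between kallikreins within each library, one point per library with a line at the mean of 3, shCXCR7 in red and LKO in blue. KLK4 over KLK3 crosses 1 (dotted) between the LNCaP-EnzR groups, which lie at 0.645 to 0.736 after KD and at 1.29 to 1.53 in controls. Where a ratio stands relative to 1 rests on the gene lengths behind the RPKM.

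The other 13 kallikrein genes of the table, including the pseudogene KLKP1, were low or at 0, and 2 of them were high enough to be tested. KLKP1 stood at 1.51, 1.40 and 1.41 RPKM in C4-2B-EnzR shCXCR7 libraries, against 4.84, 3.02 and 2.60 RPKM in LKO libraries (rescaled). It fell there by 1.10 on the log2 scale (SE 0.21, limma, adjusted p = 0.00404). In LNCaP-EnzR cells KLKP1 was at 0.568, 1.15 and 1.87 RPKM in shCXCR7 libraries, against 4.20, 3.46 and 3.62 RPKM in LKO libraries, and fell by 1.57 (SE 0.29, adjusted p = 0.00174). The KD and control groups did not overlap in either line. Unlike the 3 coding genes, KLKP1 was not higher in C4-2B-EnzR controls at the adjusted threshold, with a log2 fold change of -0.41 against LNCaP-EnzR controls (SE 0.28, adjusted p = 0.228).

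KLK15, which lies on the far side of KLK3 and encodes a protease that can activate pro-PSA, stood at 1.55, 1.67 and 1.79 RPKM in C4-2B-EnzR shCXCR7 libraries, against 3.40, 3.07 and 3.08 RPKM in LKO libraries. It fell by 0.84 on the log2 scale (SE 0.11, limma, adjusted p = 0.000814). In LNCaP-EnzR cells KLK15 was at 0.163, 0.141 and 1.65 RPKM in shCXCR7 libraries, against 0.506, 0.709 and 0.808 RPKM in LKO libraries. The first 2 KD libraries, with 3 reads each, lay below the controls and replicate 3, with 38 reads, above them. The log2 fold change of -0.44 did not pass (adjusted p = 0.599). Without replicate 3 it was -1.25, given as a value with no test, since KLK15 then passed the filter on low values only through its controls.

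KLK5 to KLK13, 9 genes further along the cluster, were at no more than 0.134 RPKM (deposited) in 11 libraries and at 0.315 to 0.799 RPKM in LNCaP-EnzR shCXCR7 replicate 3. They were used as an estimate of the background of that library at this locus, and the source of their signal was not tested. Against this estimate can be set that library's deposited 1.28 RPKM of KLK2, 2.70 RPKM of KLK4 and 4.19 RPKM of KLK3. KLK1 and KLK14 lie at the ends of the cluster. KLK1 was at 0.704 RPKM (deposited) in LNCaP-EnzR shCXCR7 replicate 3 and at no more than 0.445 RPKM in the other 11 libraries. KLK14 reached at most 0.593 RPKM (deposited) in any library, and 0.589 RPKM in that replicate. With 0.488 RPKM, the median of KLK5 to KLK13, subtracted from LNCaP-EnzR shCXCR7 replicate 3 before rescaling, the log2 fold changes in LNCaP-EnzR cells were -2.24 for KLK2, -1.75 for KLK3 and -2.76 for KLK4. With the lower estimate of 0.234 RPKM, from the 5096 genes at 0 elsewhere, they were -2.17 for KLK2, -1.77 for KLK3 and -2.76 for KLK4.

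**Figure D5:**
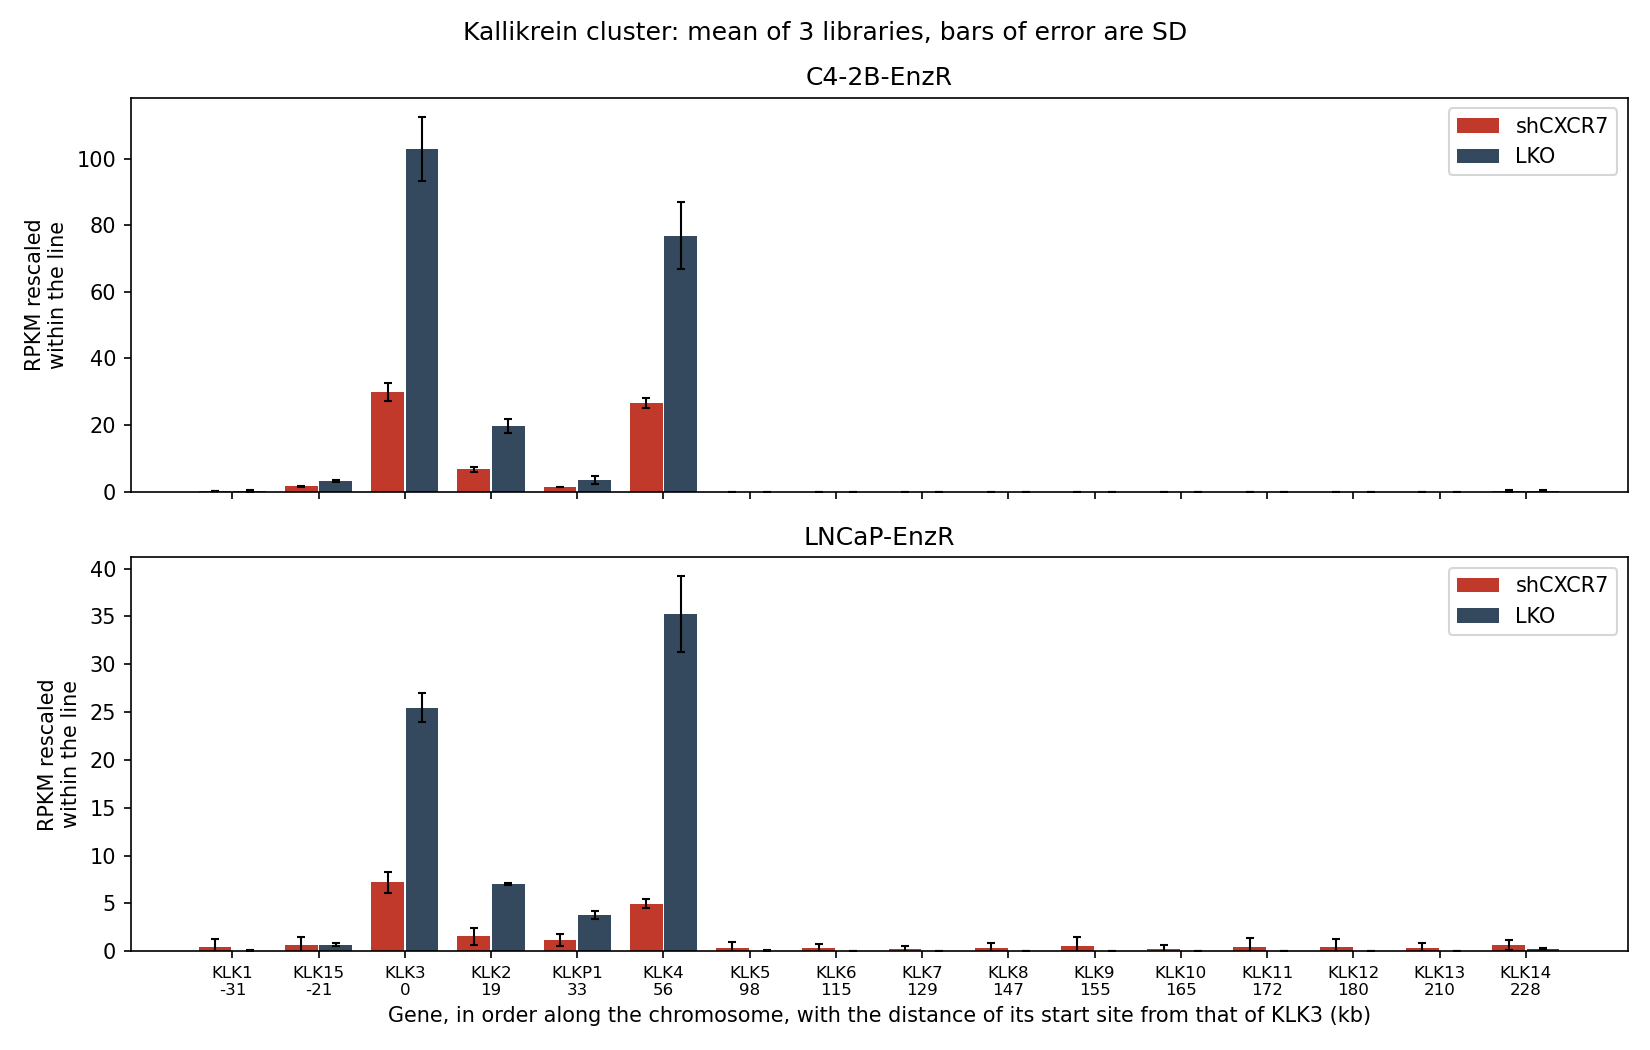
Mean RPKM (rescaled within the line, bars, with SD of 3 libraries) of the 16 kallikrein genes in the order of the cluster, with each start site's distance from that of KLK3 in kb, C4-2B-EnzR above and LNCaP-EnzR below, shCXCR7 left of LKO. KLK3 and KLK4 are the highest, KLK2 is lower, KLKP1 and KLK15 are low, and KLK5 to KLK13 are near 0 apart from the LNCaP-EnzR shCXCR7 bars, which hold replicate 3.

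Of 25 genes for the androgen response machinery and factors known at kallikrein enhancers, 11 of 23 tested fell and 1 rose in C4-2B-EnzR cells, with a median log2 fold change of -0.19, and 9 of 24 tested fell and 2 rose in LNCaP-EnzR cells, with a median of -0.08, or 9 and 3 without LNCaP-EnzR shCXCR7 replicate 3. Over all genes tested the medians were -0.0004 in C4-2B-EnzR and 0.02 in LNCaP-EnzR cells. The shares that fell were 21.3% in C4-2B-EnzR and 21.2% in LNCaP-EnzR cells. The shares that rose were 21.2% in C4-2B-EnzR and 19.2% in LNCaP-EnzR cells. Every list count with all libraries is to be read beside these shares. Without LNCaP-EnzR shCXCR7 replicate 3, 23.9% of 12833 genes fell and 22.5% rose in LNCaP-EnzR cells, the shares beside which each count without that library is to be read. The largest changes in this list were in HSP90AA1, a chaperone of steroid hormone receptors, at -1.72 in C4-2B-EnzR and -1.87 in LNCaP-EnzR cells. GATA2, a pioneer factor that opens enhancers, fell by 0.90 in C4-2B-EnzR and fell by 0.94 in LNCaP-EnzR cells. The corepressor CTBP1 had log2 fold changes of -0.88 in C4-2B-EnzR and -1.06 in LNCaP-EnzR cells, and the coactivator NCOA1 of -0.84 in C4-2B-EnzR and -0.56 in LNCaP-EnzR cells (limma, adjusted p from 5.39e-06 to 0.000749 for these 4 genes).

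Other genes known to be activated by androgen did not move as one group. Of 54 listed, 17 of 41 tested fell and 12 rose in C4-2B-EnzR cells (median log2 fold change -0.29), and 17 of 40 fell and 7 rose in LNCaP-EnzR cells (median -0.14). Without LNCaP-EnzR shCXCR7 replicate 3, 18 of 40 fell and 7 rose, beside 23.9% and 22.5% of all genes in that fit. The 4 genes named next had the largest absolute log2 fold changes averaged over both lines, so their shared direction follows in part from that choice. TSC22D3, a leucine zipper protein induced by glucocorticoid and androgen, had log2 fold changes of -1.71 in C4-2B-EnzR and -2.24 in LNCaP-EnzR cells. The values were -1.79 in C4-2B-EnzR and -1.11 in LNCaP-EnzR cells for the membrane protease TMPRSS2, -1.03 in C4-2B-EnzR and -1.70 in LNCaP-EnzR cells for the lipid phosphatase PPAP2A, and -1.15 in C4-2B-EnzR and -1.56 in LNCaP-EnzR cells for the efflux pump ABCC4 (all 4 genes fell in both lines, limma, adjusted p from 4.99e-07 to 0.000224). FKBP5, a cochaperone induced by androgen, had values of -0.35 in C4-2B-EnzR (adjusted p = 0.114) and 0.08 in LNCaP-EnzR cells (adjusted p = 0.568). It was named after its values were seen, as a widely used readout of androgen action.

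Genes known to rise when androgen signalling falls were mixed in C4-2B-EnzR cells. Of 15 listed, 3 of 11 tested fell and 3 rose there (median -0.09), ACKR3 itself being among those that fell. In LNCaP-EnzR cells 1 of 12 fell and 4 rose (median 0.19), and the 1 that fell was ACKR3, the targeted gene. Over all genes tested, 21.3% fell and 21.2% rose in C4-2B-EnzR, and 21.2% fell and 19.2% rose in LNCaP-EnzR cells. BCHE, a cholinesterase, rose by 1.57 in C4-2B-EnzR and 0.65 in LNCaP-EnzR cells, the serpin SERPINI1 by 0.67 in C4-2B-EnzR and 1.13 in LNCaP-EnzR cells, and the kinase inhibitor CAMK2N1 by 0.40 in C4-2B-EnzR and 0.85 in LNCaP-EnzR cells (limma, adjusted p from 2.80e-05 to 0.00777).

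The partners of the kallikrein proteases were followed in the same way. Over all genes tested 21.3% fell and 21.2% rose in C4-2B-EnzR, and 21.2% fell and 19.2% rose in LNCaP-EnzR cells. Among 11 activators of kallikreins, 2 of 6 tested fell and 2 rose in C4-2B-EnzR cells (median -0.0019), and 2 of 6 fell and 1 rose in LNCaP-EnzR cells (median 0.14). Without LNCaP-EnzR shCXCR7 replicate 3, 2 of 6 fell and 2 rose, and the median changed sign to -0.06. PRSS8 (prostasin) rose by 1.11 in C4-2B-EnzR (limma, adjusted p = 2.80e-05) and 0.57 in LNCaP-EnzR cells (adjusted p = 0.00023), opposite to TMPRSS2. Hepsin (HPN) was at -0.21 in C4-2B-EnzR cells (adjusted p = 0.166) and fell by 0.43 in LNCaP-EnzR cells (adjusted p = 0.00124). Matriptase (ST14) rose by 0.36 in C4-2B-EnzR cells (adjusted p = 0.00617) and was at 0.12 in LNCaP-EnzR cells (adjusted p = 0.321). Of 16 inhibitors, 1 of 5 tested fell and 3 rose in C4-2B-EnzR cells (median 0.28), and 0 of 4 fell and 2 rose in LNCaP-EnzR cells (median 0.32).

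Among the inhibitors, SPINT1, which blocks hepsin and matriptase, rose by 0.81 in C4-2B-EnzR and 0.73 in LNCaP-EnzR cells, and the intracellular serpin SERPINB6 by 0.59 in C4-2B-EnzR and 0.49 in LNCaP-EnzR cells (limma, adjusted p from 0.000124 to 0.00096). SLPI, the secretory leukocyte protease inhibitor, fell by 2.66 in C4-2B-EnzR cells (adjusted p = 2.33e-05) and was at 0.14 in LNCaP-EnzR cells (adjusted p = 0.783), a difference between lines of -2.77 (SE 0.41, adjusted p = 0.00166). SPINT2, a relative of SPINT1, rose by 0.28 in C4-2B-EnzR cells (adjusted p = 0.0159) and was at -0.09 in LNCaP-EnzR cells (adjusted p = 0.566). Of 22 substrates, 3 of 13 tested fell and 4 rose in C4-2B-EnzR cells (median -0.08), and 3 of 10 fell and 3 rose in LNCaP-EnzR cells (median 0.36). The shares over all genes tested were 21.3% lower and 21.2% higher in C4-2B-EnzR, and 21.2% lower and 19.2% higher in LNCaP-EnzR cells. Fibronectin (FN1) had log2 fold changes of -0.81 in C4-2B-EnzR and -0.37 in LNCaP-EnzR cells, and the thrombin receptor F2R rose by 0.52 in C4-2B-EnzR and 0.62 in LNCaP-EnzR cells (adjusted p from 0.000799 to 0.0253). IGFBP2, an insulin-like growth factor binding protein, was at -0.08 in C4-2B-EnzR cells (adjusted p = 0.541) and fell by 1.11 in LNCaP-EnzR cells (adjusted p = 2.24e-05), a difference between lines of 1.05 (SE 0.16, adjusted p = 0.00186).

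Of 20 other genes of prostate secretion, 4 of 11 tested fell and 3 rose in C4-2B-EnzR cells (median -0.20), and 4 of 7 fell and 0 rose in LNCaP-EnzR cells (median -0.38). The log2 fold changes were -0.82 in C4-2B-EnzR and -0.53 in LNCaP-EnzR cells for ACPP, prostatic acid phosphatase, -1.07 in C4-2B-EnzR and -0.38 in LNCaP-EnzR cells for the zinc transporter SLC30A4, and -1.24 in C4-2B-EnzR and -2.07 in LNCaP-EnzR cells for the secreted factor GDF15 (limma, adjusted p from 8.55e-06 to 0.0305). AZGP1, a secreted glycoprotein, was at -0.20 in C4-2B-EnzR (adjusted p = 0.179) and -0.0024 in LNCaP-EnzR cells (adjusted p = 0.987). Serine proteases outside the cluster gave no common direction, with 2 of 20 tested lower and 6 higher in C4-2B-EnzR cells (median -0.06). In LNCaP-EnzR cells 4 of 17 were lower and 3 higher (median 0.12), or 6 of 17 lower and 3 higher without LNCaP-EnzR shCXCR7 replicate 3 (median 0.01). Beside both lists, 21.3% of all genes tested were lower and 21.2% higher in C4-2B-EnzR, and 21.2% lower and 19.2% higher in LNCaP-EnzR cells. PRSS36 rose by 0.76 in C4-2B-EnzR cells (limma, adjusted p = 0.0112) and was at 0.78 in LNCaP-EnzR cells (adjusted p = 0.151), while TMPRSS6, which cleaves the iron regulator hemojuvelin, was at 0.54 in C4-2B-EnzR cells (adjusted p = 0.0663) and rose by 0.60 in LNCaP-EnzR cells (adjusted p = 0.0296).

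Markers of luminal and neuroendocrine cells were followed beside the kallikreins. Their counts stand beside 21.3% of all genes lower and 21.2% higher in C4-2B-EnzR, and 21.2% lower and 19.2% higher in LNCaP-EnzR cells. Of 9 luminal markers, 6 fell and 3 rose in C4-2B-EnzR cells (median -0.25), and 4 fell and 2 rose in LNCaP-EnzR cells (median -0.21), or 4 and 3 without LNCaP-EnzR shCXCR7 replicate 3. The keratins were among those that rose, KRT8 by 0.71 in C4-2B-EnzR and 0.30 in LNCaP-EnzR cells and KRT18 by 0.38 in C4-2B-EnzR and 0.32 in LNCaP-EnzR cells (limma, adjusted p from 0.00114 to 0.0332). The summed level of the 9 was 775 to 798 RPKM in shCXCR7 and 872 to 876 RPKM in LKO libraries of C4-2B-EnzR, and 610 to 726 RPKM in shCXCR7 and 741 to 752 RPKM in LKO libraries of LNCaP-EnzR. Of 16 neuroendocrine genes, 4 were tested in each line, and 1 fell and 1 rose in C4-2B-EnzR cells (median -0.20), while 2 fell and 1 rose in LNCaP-EnzR cells (median 0.02). Without LNCaP-EnzR shCXCR7 replicate 3 the LNCaP-EnzR counts were the same and the median was -0.19. SYP (synaptophysin) rose by 2.43 in C4-2B-EnzR and 1.20 in LNCaP-EnzR cells, and ENO2 (neuron-specific enolase) fell, with values of -0.79 in C4-2B-EnzR and -1.08 in LNCaP-EnzR cells (adjusted p from 2.88e-05 to 0.00655). The summed level of the 16 was 72.6 to 73.7 RPKM in shCXCR7 and 79.4 to 85.4 RPKM in LKO libraries of C4-2B-EnzR, and 11.2 to 23.3 RPKM in shCXCR7 and 18.8 to 20.8 RPKM in LKO libraries of LNCaP-EnzR. In LNCaP-EnzR shCXCR7 replicate 3 each of the 16 was at 0.218 RPKM or more (deposited), whereas values in the other 11 libraries went down to 0. The part of these shifts in the kallikrein loss was not tested.

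Across the 12 libraries, the genes whose levels followed each kallikrein most closely were listed as a description, by Pearson's r of log2(RPKM + 0.25) among 12137 genes with a mean of at least 1 RPKM. Since all points share the difference between lines and that between KD and control, high values of r need no more than these contrasts. KLK3 was followed by GNG13 (0.99), a G protein gamma subunit, the calcium-dependent kinase CAMK2G (0.99), MADD (0.99), COLEC12 (0.99) and UBE2Q2 (0.99). KLK2 was followed by CAMK2G (0.98), NFKBIB (0.98), ORAI2 (0.97), the beta-arrestin ARRB1 (0.97) and KLK3 itself (0.97). KLK4 was followed by NFKBIB (0.99), PACSIN3 (0.99), ENO2 (0.98), PIP4K2C (0.98) and ELL3 (0.98). CAMK2G was on the lists of KLK3 and KLK2 and NFKBIB on those of KLK2 and KLK4. ACKR3, which was lower in C4-2B-EnzR than in LNCaP-EnzR controls, reached 0.19 with KLK3, 0.23 with KLK2 and 0.29 with KLK4.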

How the data were processed

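RNA-Seq of 12 libraries (2 cell lines, shCXCR7 or LKO, 3 libraries per group) was read from 1 deposited table. The paper describes its C4-2B-EnzR RNA-Seq as duplicate, whereas the table holds 3 libraries per group of that line, all used here. Per the labels and the paper's methods, the authors sequenced single-end reads from NEBNext Ultra libraries, aligned them with STAR to GRCh38 (hg38) and computed RPKM per gene with an in-house script (the paper writes FPKM). The annotation, the strand setting and which hairpin was used were not stated in any source used. RPKM divides by the reads of a library, so reads outside genes lower it. Of 26475 lines, 32 hold no value and 4 repeat a symbol, which left 26439 genes. Reads were recovered from the RPKM steps for 25027 of 25028 genes, within 0.02 reads of a whole number. The lengths behind the RPKM were 2958 bases for KLK2, 1906 for KLK3 and 1359 for KLK4.

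The RPKM of each line were rescaled by median-of-ratios factors and, as log2(value + 0.25), tested with limma (version 3.58.1, R version 4.3.3), using empirical Bayes moderation and trend, over genes at 0.5 RPKM or more in at least 3 libraries. A fold change on this scale understates that of low genes. P-values were Benjamini-Hochberg adjusted over all genes tested, with a threshold of 0.05. Lines were compared in 1 fit of 12 libraries, in which the contrasts of the shCXCR7 groups of C4-2B-EnzR with LNCaP-EnzR groups were added after the data were seen. Code was tested on simulated data. Ratios used exact permutation tests with Python 3.11.15, numpy 2.4.6 and scipy 1.17.1. Figures used matplotlib 3.10.9, alignments biopython 1.88, and annotation GENCODE 44.

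Members and lists were chosen with earlier results of these data known. Named genes were the kallikreins, ACKR3, up to 4 members per list with the largest absolute value of the log2 fold change averaged over both lines, and the 5 genes most alike each kallikrein. For named list members, small p-values and a shared direction in both lines follow in part from that choice. FKBP5 was added after its values were seen. Some listed genes are counted in their lists but not reported here by name. Alternatives were other scalings, pseudocounts, filters, 1 fit of all 12 libraries, robust empirical Bayes, a replicate block, voom on recovered reads and leaving out each library. Added after the data were seen were factors from genes at 5 RPKM or more, subtraction of the background of LNCaP-EnzR shCXCR7 replicate 3, counts per list without it, and the alternatives for the test over both lines.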

Additional observations from a re-analysis of the deposited data

Results flagged for a closer look

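The KLK4 response to CXCR7 KD differed between the lines, by 1.29 log2 units (C4-2B-EnzR minus LNCaP-EnzR, limma interaction, adjusted p = 0.000489, 3 libraries per group). The KLK4 over KLK3 ratio moved in opposite directions, with a log2 difference of 0.27 in C4-2B-EnzR cells, where all 3 shCXCR7 libraries lay above all 3 LKO libraries, and of -0.98 in LNCaP-EnzR cells, where all 3 lay below. The difference between these ratio changes was not tested.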

How the results depend on the processing

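Of 366 alternative values over 22 results, 355 kept their direction and their side of the threshold, or moved by less than the spread between replicates, and these include every alternative for the falls of KLK2, KLK3 and KLK4 in each line. The KLK4 difference between lines was 1.62 on the values as deposited and missed the threshold (adjusted p = 0.197). The KLK2 difference between lines ranged from 0.34 to 1.03 on leaving out 1 library, and passed only at 1.03, without LNCaP-EnzR shCXCR7 replicate 3 (adjusted p = 0.00788). The KLK3 difference between lines, 0.04 and not called, was -0.13 with quantile normalization, -0.020 with a pseudocount of 1, -0.075 with factors from genes at 5 RPKM or more and -0.015 with the background of KLK5 to KLK13 subtracted, and ranged from -0.025 to 0.15 on leaving out 1 library. The cause was not tested.

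Same-numbered libraries did not deviate together (r from -0.11 to 0.06), so the numbers were not taken to pair samples. With a replicate block the KLK4 difference between lines stayed 1.29 (adjusted p = 0.00546), and the block changed no call. Depth limited KLK15 in LNCaP-EnzR shCXCR7 libraries, which hold 3 reads each apart from replicate 3, and KLK2 there, at 41 and 51 reads. With 3 libraries per group, a ratio within 1 line cannot pass the threshold by an exact test.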
